A study of Mus musculus with 8 samples.

Results

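The homeobox transcription factors of the mouse brain were followed over 4 developmental contexts with the Affymetrix 430B array. Members were the probe sets that the platform annotation gives exactly 1 gene symbol from a family of homeobox or closely related names (Hox, Lhx, Pax, Dlx, Emx, Otx, Nkx, Six3 and Six4 with their relatives, Pou, Irx, Meis, Pbx, Onecut, Vax, Vsx, Dbx, Barhl, Gbx, Evx, Gsx, Msx, Isl, Cux, Satb, Zfhx, Tshz, Phox, Pitx, Lmx and Prox). The rule reads gene symbols and no signal. It gave 81 probe sets for 60 genes, out of 22511 probe sets on the array. Of these, 65 probe sets belonged to 46 protein-coding genes, 14 to 12 long noncoding RNA genes and 2 to 2 antisense RNA genes, the noncoding ones being named after a homeobox gene beside them. A further 4 genes with 6 probe sets were not analysed here. Where a gene had several probe sets, these are called A, B and C in the order of their mean signal.

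All samples came from mice heterozygous for T9H (T9H/+), a reciprocal translocation between chromosomes 7 and 15. In one kind of animal the proximal part of chromosome 7 was duplicated from the mother and that of chromosome 15 from the father (maternal-7), and in the other kind the parents were exchanged (paternal-7). There was 1 array of each kind for neonatal cortex, neonatal cerebellum, embryonic brain at 15.5 days post coitum (dpc) and embryonic brain at 13.5 dpc, so 8 arrays in all and no replicate within a group. For the embryos the labels say brain and do not describe the dissection. Every group carries both duplications, animals without them are not analysed here, and the labels do not say whether RNA was pooled or whether both neonatal tissues were taken from the same pups.

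Homeobox genes encode DNA-binding proteins with a homeodomain, a helical fold whose recognition helix reads short AT-rich sites around a TAAT core. In the developing brain they lay out territories: Emx, Otx, Vax and Dlx genes in the forebrain, Pax and Lmx1 genes around the midbrain and hindbrain, and the clustered Hox genes from the hindbrain backward in an order that follows their place in the cluster. TALE homeodomain proteins of the Meis and Pbx families bind DNA together with Hox and other proteins, and POU and zinc finger homeobox proteins act in neural progenitors and differentiating neurons.

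The promoters of 5 members whose signals are described below are shown so that the homeodomain core can be seen in the genes' own start regions. Hoxa5 and Hoxd8 come from 2 Hox clusters, Vax1 and Dlx6os1 mark the ventral forebrain, and Emx2 the dorsal telencephalon. The sequences are those of RefSeq on GRCm38.p6, each from 250 bases before to 50 bases after the transcription start, on the strand of the gene. Their positions are chr6:52204538-52204837 (minus strand) for Hoxa5, chr2:74704365-74704664 (plus) for Hoxd8, chr19:59170348-59170647 (minus) for Vax1, chr6:6869484-6869783 (minus) for Dlx6os1 and chr19:59458440-59458739 (plus) for Emx2. Capitals mark ATTA and its reverse complement TAAT.
Hoxa5: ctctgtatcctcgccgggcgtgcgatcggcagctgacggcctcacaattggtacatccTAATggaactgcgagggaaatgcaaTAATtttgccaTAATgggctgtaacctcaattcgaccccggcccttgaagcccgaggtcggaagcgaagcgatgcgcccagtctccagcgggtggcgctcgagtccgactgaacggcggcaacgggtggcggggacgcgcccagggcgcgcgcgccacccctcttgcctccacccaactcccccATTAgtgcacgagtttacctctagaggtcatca
Hoxd8: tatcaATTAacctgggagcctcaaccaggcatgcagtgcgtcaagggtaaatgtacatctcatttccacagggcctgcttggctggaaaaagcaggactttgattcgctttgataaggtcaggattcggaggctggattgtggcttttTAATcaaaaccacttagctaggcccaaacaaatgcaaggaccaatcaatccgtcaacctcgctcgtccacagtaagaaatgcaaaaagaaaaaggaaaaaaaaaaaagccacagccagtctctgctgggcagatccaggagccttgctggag
Vax1: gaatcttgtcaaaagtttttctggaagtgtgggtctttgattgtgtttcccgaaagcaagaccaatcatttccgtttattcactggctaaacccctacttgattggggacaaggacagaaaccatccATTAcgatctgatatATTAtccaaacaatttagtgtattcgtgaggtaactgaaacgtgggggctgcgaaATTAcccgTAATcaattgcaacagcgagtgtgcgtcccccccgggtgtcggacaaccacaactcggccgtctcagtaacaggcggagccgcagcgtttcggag
Dlx6os1: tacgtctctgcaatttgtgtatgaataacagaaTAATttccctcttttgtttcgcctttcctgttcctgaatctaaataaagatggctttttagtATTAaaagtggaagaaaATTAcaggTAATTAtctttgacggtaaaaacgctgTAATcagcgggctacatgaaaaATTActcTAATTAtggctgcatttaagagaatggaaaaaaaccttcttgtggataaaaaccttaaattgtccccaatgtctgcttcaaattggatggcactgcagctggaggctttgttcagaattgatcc
Emx2: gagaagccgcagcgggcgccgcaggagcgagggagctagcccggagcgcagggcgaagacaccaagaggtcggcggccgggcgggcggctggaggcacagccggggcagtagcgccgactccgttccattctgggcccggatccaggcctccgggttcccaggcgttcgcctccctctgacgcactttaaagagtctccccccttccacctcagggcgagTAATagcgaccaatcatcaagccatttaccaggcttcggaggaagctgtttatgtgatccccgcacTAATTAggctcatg

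Promoter sequences were found for 43 of the 60 genes, 54 promoters in all. ATTA occurred on either strand in 29 of the 54 (53.7%), against 58.0% of all 32851 promoters of that length. The longer palindrome TAATTA, which contains ATTA on both strands, occurred in 6 of the 54 (11.1%), against 5.29% of all promoters. Its genes were Dlx6os1, which holds 2 copies in the window shown, Emx2, Evx1os, Msx2 and Pax6os1. The median GC content of the members' promoters was 58.0%, against 52.7% for all promoters, and their median number of CpG dinucleotides was 15.5 against 7. A match in this window is a description of the letters and says nothing of binding.

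The deposited values are MAS5 signals on a linear scale, called signal units here. The median signal of an array lay between 229.8 and 285.7, and signals under the median of their array are called background level here. The arrays of maternal-7 and paternal-7 samples of one context correlated at r = 0.891 to 0.953 over the tested probe sets. Tissue labels were checked with marker genes: Bcl11b, Neurod2 and Slc17a7, the 3 of 7 cortical markers on this array, summed to 16705 and 17030 signal units in cortex and to 4524 and 4608 in cerebellum. Of the cerebellar markers 3 of 10 were present (Calb1, Tfap2b and Zic1), with sums from 11289 to 12400 in cerebellum and from 4244 to 6746 in cortex. On both 13.5 dpc arrays the limb and head mesenchyme gene Prrx1 gave 2646 and 2759 signal units with its probe set A, against 172 to 325 on the other 6 arrays, and the craniofacial gene Alx1 gave 1031 and 1142 with its probe set A, against 9.10 to 82.5. Choroid plexus markers (3 of 5 on the array) summed to 24815 and 37443 signal units at 13.5 dpc and to 36139 to 58548 elsewhere, and none of the listed markers of retina, blood, microglia or oligodendrocytes had a probe set here.

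Probe sets were tested where 2 or more of the 8 arrays gave a signal above their median, which held for 60 member probe sets of 48 genes (74.1%, against 58.7% of all probe sets). Of the 81, 27 were above the median on every array and 20 on none. The 21 that were not tested reached at most 283 signal units on any array, and 12 genes had no tested probe set: Hoxa11os, Hoxc10, Dbx2, Otx2os1, Vax2os, Pax1, Six4, Barhl2, Evx1os, Lhx4, Pax8 and Prox2. Differences are given as log2(signal + 58.5), with ± for the moderated standard error of an additive limma model with context and duplication, and a difference is called at a Benjamini-Hochberg adjusted p below 0.05 over all 13221 tested probe sets. The pseudocount of 58.5 signal units makes the differences of dim probe sets smaller than those of their signals.

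Among the 4 contexts 20 of the 60 member probe sets differed (33.3%), while 21.7% of all tested probe sets did so. The 20 were, in the order of their F statistic, Vax1, Dlx6os1, Pax3, Zfhx4, Lmx1b, Pou3f2 A, Hoxd8, Hoxa5, Lhx1os, Tshz2 B, Meis2 C, Dlx4os, Hoxc5 A, Prox1 A, Zfhx3 C, Hoxd3, Pbx3, Pou3f3, Zfhx3 B and Meis2 A. Without 1 array the number called lay between 8 (without the maternal-7 cortex array) and 19. Between neonatal cortex and cerebellum 1 member was called, Vax1, higher in cortex, where 0.197% of all tested probe sets were higher and 0.129% lower. No member was called lower there, and 15 members had an unadjusted limma p below 0.05. In this comparison 14 members had both cortical arrays above both cerebellar ones, and 18 the reverse (23.3% and 30.0% of them). The shares of all tested probe sets were 19.6% and 21.4%.

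Between the mean of the neonatal and the mean of the embryonic contexts 20 members differed (33.3%), and 30.7% of all tested probe sets did. Of the members 5 were higher and 15 lower in the neonate (8.33% and 25.0%), and of all tested probe sets 14.3% and 16.4%. The median difference of all tested probe sets was itself -0.16, that of the members -0.27. With quantile normalization 5 members were higher and 10 lower, where 14.7% and 12.1% of all tested probe sets were. With median centring of the arrays, which moved the median of all tested probe sets to 0.02, 6 members were higher and 8 lower, against 18.1% and 8.0%. The filter itself set a part of these counts: 7 of the 60 passed it through embryonic arrays alone and 2 through neonatal ones alone, and of these 9, 4 were called lower and 2 higher. Without the filter 2 of all 81 member probe sets were called higher and 15 lower, against 7.14% and 7.41% of the 22511 probe sets. Within the embryo 5 members were called (8.33%), and 6.59% of all tested probe sets. Of the members 2 were higher and 3 lower at 15.5 than at 13.5 dpc, and of all tested probe sets 3.52% and 3.07%. Members with both 15.5 dpc arrays above both 13.5 dpc ones numbered 17 (28.3%), and 14 had the reverse (23.3%), near the 22.5% and 24.1% of all tested probe sets. Neonatal and embryonic samples differ in age and dissection together, which cannot be told apart.

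**Figure D1:**
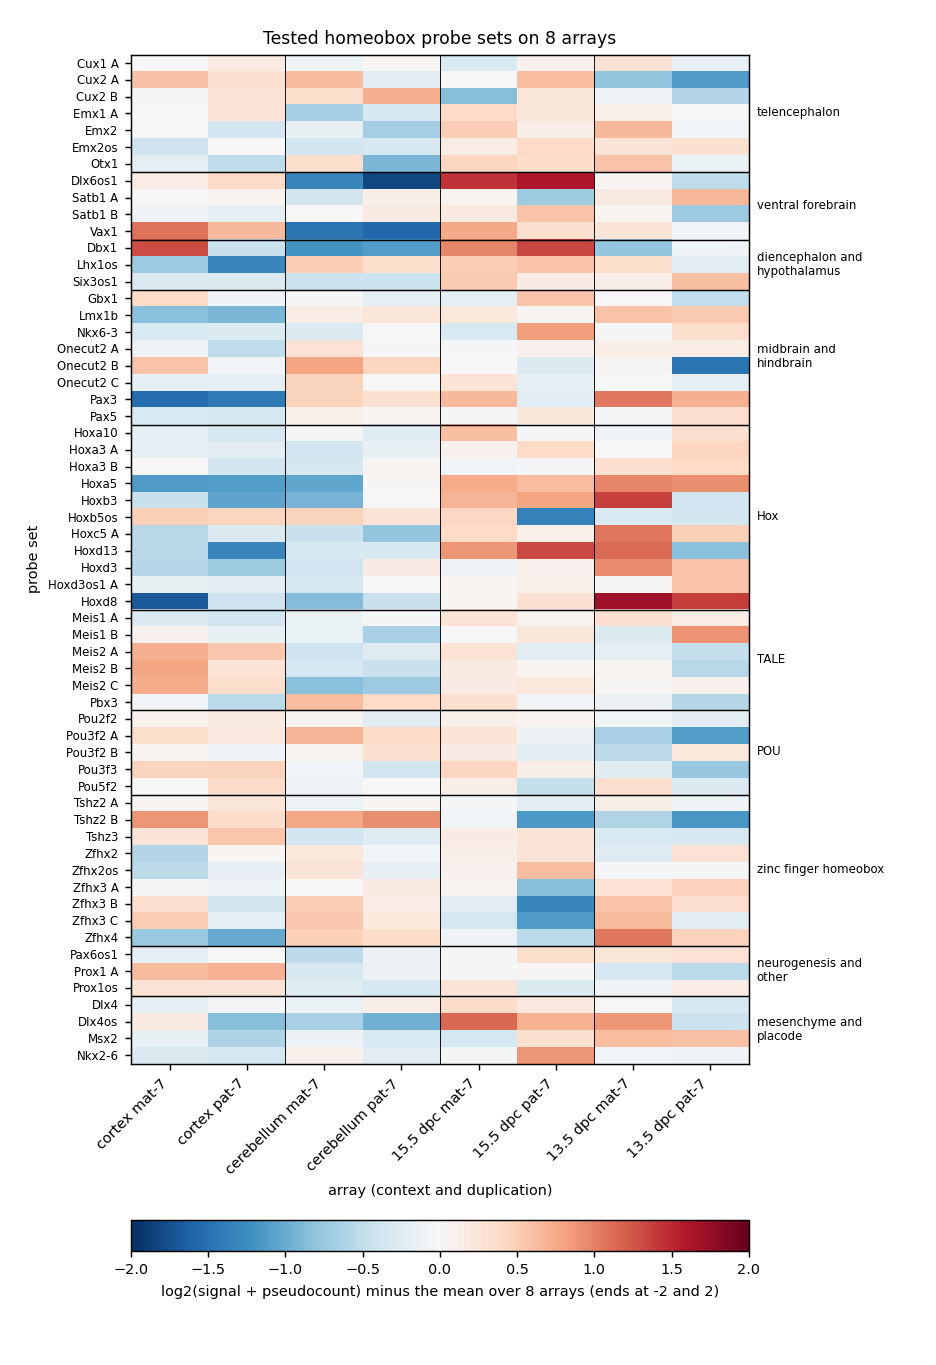
Colour shows log2(signal + 58.5) of each of the 60 tested probe sets (vertical axis, grouped by role) on each of the 8 arrays (horizontal axis), minus the probe set's mean over the 8 arrays; the colour scale ends at -2 and 2. Vax1 and Dlx6os1 are lowest in cerebellum, Pax3 in cortex, and most Hox probe sets are higher on the embryonic arrays than on the neonatal ones.

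Vax1, a homeobox gene of the ventral forebrain and optic stalk, was the member with the largest F statistic over the 4 contexts. Its maternal-7 and paternal-7 signals, in that order here and in all pairs below, were 1299 and 945 in cortex, 175 and 159 in cerebellum, 1025 and 756 at 15.5 dpc and 714 and 560.1 at 13.5 dpc. Both cerebellar arrays were below the array median and below the other 6 arrays. Cortex exceeded cerebellum by 2.37 ± 0.19 on the log2 scale (limma adjusted p = 0.00983). Since cerebellum lay under the median, the fold is also given as a bound, cortex over the array median in cerebellum, and was at least 4.77-fold. The call was lost without any 1 of the 4 neonatal arrays, as were the calls of all other tested probe sets in this comparison. The loss is therefore not particular to Vax1, whose difference stayed between 2.23 and 2.52. In tissue RNA fewer cells of a type and less RNA per cell cannot be told apart. Markers of the striatum (Drd1, Rgs9 and Tac1, 3 of 8 on the array) summed to 1507 and 2158 signal units in cortex against 747 and 830 in cerebellum, with a median difference of 0.18 and 1 of the 3 called higher in cortex. The hypothalamic peptide gene Pmch gave 1018 and 1468 against 196 and 222. The part of these tissues in the Vax1 difference was not tested.

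In cerebellum Vax1 was also lower than in embryonic brain. Over both neonatal tissues it was lower than in the embryo, with a difference of -0.65 ± 0.13 (limma adjusted p = 0.0125), with overlapping arrays. Cerebellum alone differed from the embryonic mean by -1.84 (limma adjusted p = 0.00200) and cortex alone by 0.53 (adjusted p = 0.0593), a pair of comparisons chosen after seeing the data.

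Dlx6os1, a long noncoding RNA transcribed from the Dlx5 and Dlx6 locus and known from ventral forebrain interneuron precursors, was likewise lowest in cerebellum. Its signals were 679.9 and 806 in cortex, 211 and 131 in cerebellum, 1749 and 1987 at 15.5 dpc and 627 and 410.3 at 13.5 dpc. The 15.5 dpc arrays were the highest of all and the cerebellar ones, below the array median, the lowest, and no context overlapped another. It was higher at 15.5 than at 13.5 dpc by 1.76 ± 0.26 (limma adjusted p = 0.0212) and lower in the neonate than in the embryo, with a difference of -1.30 ± 0.19 (limma adjusted p = 0.00397). Cerebellum alone differed from the embryonic mean by -2.21 and cortex alone by -0.39, the latter with a limma adjusted p of 0.257. For cortex against cerebellum the difference was 1.82 ± 0.26, at least 3.18-fold, which was not called (limma adjusted p = 0.0647). The call between the embryonic ages was lost without 7 of the 8 arrays in turn, where fewer of all tested probe sets were called too. The neonatal call of Dlx6os1 was kept without each of the 8.

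Emx2, which patterns the dorsal telencephalon and its cortical areas, gave 1119 and 841 in cortex, 998 and 677 in cerebellum, 1596 and 1223 at 15.5 dpc and 1776 and 1075 at 13.5 dpc. The signals of the neonatal arrays overlapped those of the embryonic ones, and the paternal-7 array was the lower of each context. Emx2 was lower in the neonate, with a difference of -0.61 ± 0.13 (limma adjusted p = 0.0162), and the difference of cortex from cerebellum was 0.22 ± 0.19 (adjusted p = 0.893). Its antisense RNA Emx2os gave 231 and 328 in cortex, 241 and 252 in cerebellum, 371 and 454 at 15.5 dpc and 406 and 419.9 at 13.5 dpc, with all embryonic arrays above all neonatal ones, and was lower in the neonate, with a difference of -0.56 ± 0.14 (limma adjusted p = 0.0233). Neither call held under median centring, and that of Emx2os did not hold under quantile normalization either; without 1 array the adjusted p reached 0.0715 for Emx2 and 0.0977 for Emx2os.

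Its relative Emx1, a marker of the cortical neuron lineage, gave 697 and 857 in cortex, 419 and 549 in cerebellum, 937 and 839 at 15.5 dpc and 757 and 697 at 13.5 dpc with probe set A. Both cortical arrays were above both cerebellar ones, and the difference of 0.63 ± 0.21 was not called (limma adjusted p = 0.522). Probe set B of Emx1 ranged from 18.6 to 89.6, below the median on every array. Otx1, a forebrain gene of the orthodenticle family, gave 195 and 143 in cortex, 308 and 94.0 in cerebellum, 326 and 311 at 15.5 dpc and 366 and 203 at 13.5 dpc and was called in no comparison. Cux2 marks upper layer neurons of the cortex. Its probe set A gave 1036 and 844 in cortex, 1073 and 563 in cerebellum, 671 and 1064 at 15.5 dpc and 371 and 275 at 13.5 dpc. The 13.5 dpc arrays were the lowest, and 15.5 minus 13.5 dpc was 1.26 ± 0.34, not called (limma adjusted p = 0.0800). Its probe set B gave 240.0 and 308 in cortex, 333 and 448 in cerebellum, 111 and 302 at 15.5 dpc and 227 and 145 at 13.5 dpc. Cux1 A, of the related upper layer gene, ranged from 586 to 913 on the 8 arrays, and its probe sets B and C were below the median throughout. Satb1, a chromatin organizer with roles in cortical interneurons, was near the array median with both probe sets, A from 109 to 377 and B from 95.1 to 320.1. Of the 7 tested probe sets placed with the telencephalon 2 were called lower in the neonate, Emx2 and Emx2os, where 16.4% of all tested probe sets were, and none in another comparison.

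Among the members placed with the diencephalon and hypothalamus, Lhx1os and Six3os1 were lower in the neonate than in the embryo. Six3os1 lies beside Six3, a gene of the anterior forebrain and eye field. Six3os1 gave 291 and 292 in cortex, 259.9 and 258 in cerebellum, 556 and 419.5 at 15.5 dpc and 409 and 589 at 13.5 dpc, with all 4 embryonic arrays above all 4 neonatal ones, and differed by -0.71 ± 0.17 (limma adjusted p = 0.0206). That call did not hold under quantile normalization or median centring, and without 1 array its adjusted p reached 0.0856. Lhx1os lies beside Lhx1, a LIM homeobox gene of Purkinje cells and diencephalic neurons, and gave 633 and 403 in cortex, 1542 and 1402 in cerebellum, 1557 and 1635 at 15.5 dpc and 1401 and 925 at 13.5 dpc. Only the cortical arrays were lower than all the others. The neonatal difference was -0.60 ± 0.16 (limma adjusted p = 0.0335), that of cortex alone -1.32 and that of cerebellum alone 0.12. Cortex minus cerebellum was -1.44 ± 0.23 and not called (limma adjusted p = 0.0900). Under median centring the neonatal call was lost, and without 1 array its adjusted p reached 0.142. Dbx1, a progenitor gene that also gives rise to early cortical neurons, gave 769.8 and 189 in cortex, 88.1 and 97.2 in cerebellum, 603 and 788 at 15.5 dpc and 138 and 259 at 13.5 dpc. Its 2 cortical arrays differed widely from each other, and cortex minus cerebellum was 1.58 ± 0.54, not called (limma adjusted p = 0.529).

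Pax3 and Lmx1b, genes of the dorsal neural tube and of the midbrain and hindbrain, were lowest in cortex. Pax3, which also marks neural crest, gave 16.7 and 23.0 in cortex, 239 and 213 in cerebellum, 281 and 127 at 15.5 dpc and 392 and 299 at 13.5 dpc. The cortical arrays were below all others, and the 13.5 dpc arrays the only pair wholly above the array median. It was lower in the neonate, with a difference of -1.09 ± 0.19 (limma adjusted p = 0.00686), a call kept without each array in turn. Taken alone, cortex differed from the embryonic mean by -2.02, and cerebellum by -0.16 with a limma adjusted p of 0.638. Cortex minus cerebellum was -1.86 ± 0.26 and not called (limma adjusted p = 0.0586). Lmx1b, needed for serotonergic neurons and the isthmic organizer, gave 399.8 and 378 in cortex, 851 and 910.4 in cerebellum, 888 and 790.4 at 15.5 dpc and 1163 and 1125 at 13.5 dpc. Again both cortical arrays were the lowest, and both 13.5 dpc arrays the highest. It was lower in the neonate, with a difference of -0.68 ± 0.13 (limma adjusted p = 0.00939; 0.0534 without the paternal-7 cortex array). The difference of cortex alone from the embryonic mean was -1.22 and that of cerebellum alone -0.15. For cortex against cerebellum Lmx1b gave -1.07 ± 0.18 (limma adjusted p = 0.106), not called. Markers of monoamine neurons, a class that includes the serotonergic neurons, summed to 1256 and 1419 signal units in cortex and to 2132 and 2409 in cerebellum (4 of 7 on the array), and 1 of 3 tested was called lower in cortex; their part was not tested.

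Onecut2, a cut family gene of early neurons, had 3 tested probe sets, of which B was called. Probe set B gave 438 and 266 in cortex, 522 and 393 in cerebellum, 274 and 218 at 15.5 dpc and 281 and 63.3 at 13.5 dpc. The paternal-7 array was the lower one of each context, and the 13.5 dpc paternal-7 array the lowest. The neonatal difference of B was 0.87 ± 0.22 (limma adjusted p = 0.0273), and its adjusted p reached 0.112 without 1 array. Probe set A, from 255 to 489.9, and probe set C, from 174 to 304, had overlapping arrays. A differed by -0.17 ± 0.15 and C by 0.05 ± 0.14, neither called (limma adjusted p = 0.404 and 0.795), and the sign of A turned to 0.0052 with median centring. Pax5, of the midbrain and hindbrain boundary, ranged from 782 to 1264 on the 8 arrays, and Gbx1, of the dorsal spinal cord, from 294 to 675. Neither was called.

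**Figure D2:**
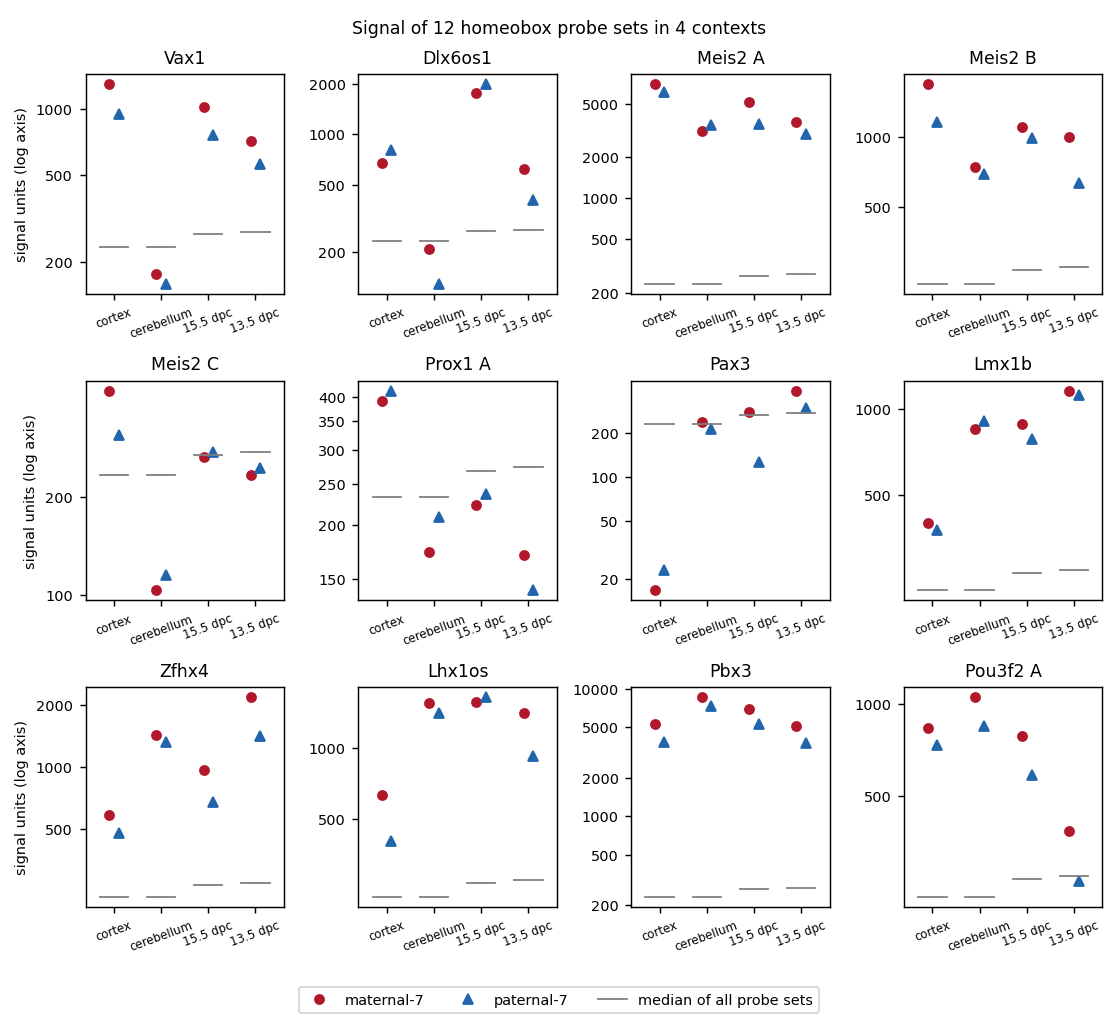
Signal units on a log axis (a different range in each panel) for 12 probe sets in the 4 contexts, with 1 point for each maternal-7 (circle) and paternal-7 (triangle) array and a grey line at the median of all probe sets, averaged over the 2 arrays of the context. Vax1, Dlx6os1 and the 3 Meis2 probe sets are lower in cerebellum than in cortex, and Pax3, Lmx1b, Zfhx4, Lhx1os and Pbx3 are higher there.

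The Hox genes pattern the hindbrain, spinal cord and trunk. Of 15 Hox probe sets of 12 genes, 11 of 10 genes were tested; 6 were called lower in the neonatal tissues than in embryonic brain and none higher, where 16.4% of all tested probe sets were called lower and 14.3% higher. Of the 11, 4 had passed the filter through embryonic arrays alone, Hoxd8, Hoxc5 A, Hoxd13 and Hoxa3 B, and 3 of these are among the 6 calls. Without the filter 5 of all 15 Hox probe sets were called lower and none higher, against 7.41% and 7.14% of all probe sets, and the median difference of the 15 was -0.47, against -0.17 for all. Those 5 were Hoxa5, Hoxd8, Hoxc5 A, Hoxd3 and Hoxd3os1 B, the last with no array above the median. In 5 of the 11 tested all 4 neonatal arrays were below all 4 embryonic ones, against 16.5% of all tested probe sets. With quantile normalization or median centring 3 of the 6 calls were kept, those of Hoxa5, Hoxd8 and Hoxc5 A, where 12.1% and 8.0% of all tested probe sets were called lower. The same 3 were kept without each array in turn, in fits that did not reapply the filter. Hoxd8 had passed it with 2 arrays, so without either of these it would not have been tested.

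Hoxa5, a gene of the caudal hindbrain and cervical level, gave 176 and 181 in cortex, 193 and 469.6 in cerebellum, 807 and 738 at 15.5 dpc and 954 and 922 at 13.5 dpc. The paternal-7 cerebellar array was the highest of the neonatal ones, and all 4 embryonic arrays lay above it. The neonatal difference was -1.63 ± 0.22 (limma adjusted p = 0.00338). Hoxd8, from the middle of the D cluster, gave 19.4 and 129 in cortex, 78.8 and 126 in cerebellum, 199 and 251 at 15.5 dpc and 755 and 594 at 13.5 dpc. Only the 13.5 dpc arrays were above the median, and the groups did not overlap. It was lower in the neonate, with a difference of -1.71 ± 0.25 (limma adjusted p = 0.00422), at least 1.66-fold. Between 15.5 and 13.5 dpc Hoxd8 differed by -1.37 ± 0.35, at 13.5 dpc at least 2.51-fold higher, which was not called (limma adjusted p = 0.0709); against the 15.5 dpc arrays alone the neonatal difference was -1.02 and not called (limma adjusted p = 0.0829).

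Hoxc5 lies on chromosome 15. Its probe set A gave 111 and 147 in cortex, 125 and 86.8 in cerebellum, 272 and 210.4 at 15.5 dpc and 463 and 288 at 13.5 dpc, with every neonatal array below the median and below every embryonic one. The difference was -1.03 ± 0.17 (limma adjusted p = 0.00653), at least 1.27-fold. Probe set B of Hoxc5 was below the median on every array.

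Hoxd3, an anterior D cluster gene, gave 146 and 127 in cortex, 172 and 282 in cerebellum, 227 and 264 at 15.5 dpc and 530.1 and 395 at 13.5 dpc, and the paternal-7 cerebellar array overlapped the embryonic ones. Hoxd3 was lower in the neonate, with a difference of -0.76 ± 0.18 (limma adjusted p = 0.0222), and its adjusted p reached 0.0991 without 1 array. Hoxa3 A, from the corresponding position of the A cluster, gave 437 and 423 in cortex, 369 and 445 in cerebellum, 537 and 682 at 15.5 dpc and 506 and 692 at 13.5 dpc, without overlap, and was lower, with -0.47 ± 0.14 (limma adjusted p = 0.0436). Its call was lost without any 1 array, with adjusted p up to 0.179. Hoxd13, the most posterior gene of its cluster and a limb and genital tubercle gene, gave 100.2 and 36.5 in cortex, 129.8 and 128 in cerebellum, 372 and 524 at 15.5 dpc and 456 and 73.0 at 13.5 dpc. The paternal-7 array at 13.5 dpc was as low as the neonatal arrays, and the other embryonic ones were high. The neonatal difference of -1.25 ± 0.37 (limma adjusted p = 0.0437), at least 1.22-fold, was lost without 6 of the 8 arrays in turn and reached an adjusted p of 0.143.

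Hoxb3, an anterior B cluster gene, gave 262 and 149.7 in cortex, 169 and 372 in cerebellum, 638 and 694 at 15.5 dpc and 1067 and 272 at 13.5 dpc, with the paternal-7 array at 13.5 dpc well below its partner, and its difference of -1.22 ± 0.40 was not called (limma adjusted p = 0.0574). Hoxb5os was the 1 Hox probe set above 0, with 0.80 ± 0.30 (limma adjusted p = 0.0858, not called). It gave 619 and 601 in cortex, 606 and 526 in cerebellum, 593 and 133 at 15.5 dpc and 338 and 321 at 13.5 dpc, with the paternal-7 array at 15.5 dpc alone below the median. Hoxa10, Hoxa3 B and Hoxd3os1 A ranged from 182 to 407, from 157 to 308 and from 236 to 497, and none was called. Hoxd3os1 B, which was not tested, gave 17.2 and 81.7 in cortex, 38.0 and 96.7 in cerebellum, 89.5 and 161 at 15.5 dpc and 183 and 242 at 13.5 dpc, below the median on every array. Between the 2 neonatal tissues, between the embryonic ages and between the duplications no Hox probe set was called.

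The Hox probe sets were set beside the mesenchymal gene Prrx1, the 1 of 6 listed mesenchyme and muscle markers that was tested. Prrx1 A gave 303 and 319 signal units at 15.5 dpc, inside its neonatal range of 172 to 325, and its probe set B gave 120 and 188 at 13.5 dpc against 57.1 to 159.8 on the other 6 arrays. The craniofacial gene Alx1 gave 80.7 and 82.5 at 15.5 dpc with its probe set A, above its neonatal range of 9.10 to 55.5. Its probe set B gave 20.4 and 21.9 there, inside its neonatal range of 7.24 to 22.8. These Alx1 values all lie at background level. Hoxa5 gave 807 and 738 at 15.5 dpc and 954 and 922 at 13.5 dpc. Against the 15.5 dpc arrays alone 1 Hox probe set was called lower in the neonate, Hoxa5, where 3.61% of all tested probe sets were. Against the 13.5 dpc arrays alone 4 were, Hoxd8, Hoxa5, Hoxc5 A and Hoxd3, and 16.4% of all tested probe sets. The part of mesenchymal RNA in the Hox differences was not tested.

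**Figure D3:**
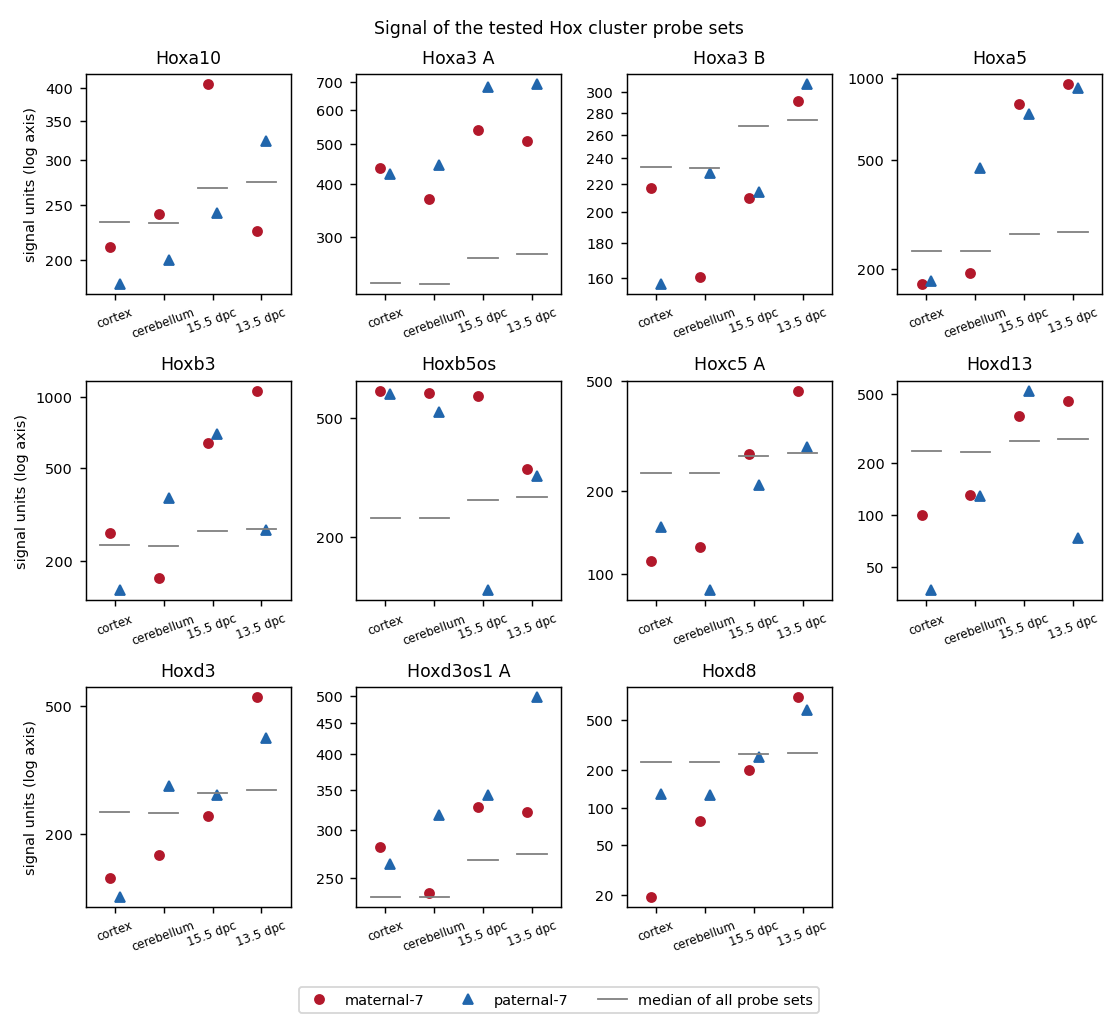
Signal units on a log axis (a different range in each panel) for the 11 tested Hox probe sets in the 4 contexts, 1 point for each maternal-7 (circle) and paternal-7 (triangle) array, with a grey line at the median of all probe sets, averaged over the 2 arrays of the context. Hoxa5, Hoxc5 A, Hoxd8, Hoxa3 A and Hoxd3os1 A have all neonatal arrays below all embryonic ones.

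The TALE genes Meis2 and Pbx3 differed among contexts, and their order over cortex and cerebellum was opposite. Meis2, which is expressed in the lateral and ventral telencephalon, had 3 tested probe sets. Probe set A gave 6997 and 6114 in cortex, 3131 and 3508 in cerebellum, 5139.7 and 3562 at 15.5 dpc and 3655 and 2995 at 13.5 dpc. Probe set B gave 1696 and 1167 in cortex, 747 and 693 in cerebellum, 1102 and 992 at 15.5 dpc and 998 and 634 at 13.5 dpc. Probe set C gave 422 and 309 in cortex, 103 and 115 in cerebellum, 264 and 274 at 15.5 dpc and 233 and 245 at 13.5 dpc. On all 3 both cortical arrays were above both cerebellar ones, by 0.97 ± 0.22, 0.91 ± 0.21 and 1.33 ± 0.20, and for C cortex was at least 1.55-fold higher. None of the 3 was called for that comparison (limma adjusted p = 0.253, 0.266 and 0.0773). Pbx3, of hindbrain and spinal neurons, gave 5339 and 3815 in cortex, 8609 and 7378 in cerebellum, 6949.6 and 5343 at 15.5 dpc and 5142 and 3749.6 at 13.5 dpc. The cerebellar arrays were the highest of all, and cortex minus cerebellum was -0.81 ± 0.18, not called (limma adjusted p = 0.244). Meis1, a Hox partner in hindbrain and limb, gave 555 and 515 in cortex, 622 and 675 in cerebellum, 839 and 723 at 15.5 dpc and 889 and 767 at 13.5 dpc with probe set A, where all neonatal arrays were below all embryonic ones. The difference of -0.41 ± 0.13 was not called (limma adjusted p = 0.0541). Its probe set B ranged from 264 to 886.

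Of the POU genes, Pou3f2 (Brn2), a regulator of neurogenesis and of upper layer neurons, was called between neonate and embryo and between the embryonic ages, with probe set A alone. Probe set A gave 836 and 737 in cortex, 1055 and 849 in cerebellum, 787 and 585 at 15.5 dpc and 385 and 262 at 13.5 dpc. Both 13.5 dpc arrays were the lowest, and the arrays of 15.5 dpc overlapped those of the neonate. The neonatal difference was 0.80 ± 0.13 (limma adjusted p = 0.00572) and that of 15.5 from 13.5 dpc 0.97 ± 0.18 (limma adjusted p = 0.0334). Against 15.5 dpc alone the neonatal difference was 0.32 and not called (limma adjusted p = 0.220). The embryonic call was lost without any 1 array, where fewer of all tested probe sets were called too. Probe set B of Pou3f2 gave 312 and 283 in cortex, 318 and 387 in cerebellum, 341 and 246 at 15.5 dpc and 191 and 356 at 13.5 dpc, with differences of 0.19 ± 0.20 and 0.12 ± 0.29, neither called. Its close relative Pou3f3 (Brn1) gave 8426 and 8424 in cortex, 5989.6 and 4695 in cerebellum, 8354 and 6786 at 15.5 dpc and 5231 and 3644 at 13.5 dpc. The cerebellar arrays lay below the cortical ones and the 13.5 dpc arrays below those of 15.5 dpc, by 0.66 ± 0.20 and 0.78 ± 0.20, which were not called (limma adjusted p = 0.433 and 0.0700). Pou2f2 (Oct2), better known from B lymphocytes, ranged from 527 to 719 on the 8 arrays, and Pou5f2, a germ line gene, from 579 to 1088.

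The zinc finger homeobox genes, large regulators of neuronal differentiation, had 9 tested probe sets and gave 3 of the 5 calls between the embryonic ages, all lower at 15.5 dpc, where 3.07% of all tested probe sets were lower. These were Zfhx4 and probe sets B and C of the single gene Zfhx3, and each call was lost without any 1 array. In each of those fits fewer of all tested probe sets were called between the embryonic ages too. Zfhx4 gave 585 and 474 in cortex, 1435 and 1323 in cerebellum, 965 and 678 at 15.5 dpc and 2181 and 1412 at 13.5 dpc. Cortex was the lowest context and 13.5 dpc held the highest array. It was lower at 15.5 than at 13.5 dpc, with a difference of -1.06 ± 0.20 (limma adjusted p = 0.0334), a call lost without any 1 array (adjusted p up to 0.129). Cortex minus cerebellum was -1.29 ± 0.20 and not called (limma adjusted p = 0.0781), and the neonatal difference was -0.45 ± 0.14 (limma adjusted p = 0.0511).

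Zfhx3 had 3 tested probe sets, all with their lowest value on the paternal-7 array at 15.5 dpc. Probe set A gave 997 and 955 in cortex, 1002 and 1152 in cerebellum, 1051 and 534 at 15.5 dpc and 1246 and 1419 at 13.5 dpc. Probe set B gave 934 and 556 in cortex, 1053 and 821 in cerebellum, 625 and 261 at 15.5 dpc and 1117 and 936 at 13.5 dpc. Probe set C gave 368 and 204 in cortex, 376 and 288 in cerebellum, 176 and 78.2 at 15.5 dpc and 407 and 198 at 13.5 dpc. The 15.5 dpc arrays were below the 13.5 dpc ones on each, by -1.21 ± 0.25 for B and -0.95 ± 0.21 for C (limma adjusted p = 0.0416 and 0.0457) and by -0.78 ± 0.30 for A, not called (adjusted p = 0.182). For C 13.5 dpc was at least 1.06-fold higher. The calls of B and C were lost without any 1 array, and C was not called under any other setting run. Without the paternal-7 array at 15.5 dpc the differences of B and C were both -0.87. In the neonate C was higher than in the embryo by 0.53 ± 0.15 (limma adjusted p = 0.0335; up to 0.120 without 1 array), and A and B differed by 0.03 and 0.31, not called.

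The teashirt genes are zinc finger proteins with a homeodomain. Tshz2 B gave 284 and 181 in cortex, 257 and 294 in cerebellum, 119 and 25.0 at 15.5 dpc and 64.0 and 24.5 at 13.5 dpc. All neonatal arrays were above all embryonic ones, and it was higher by 1.48 ± 0.21 (limma adjusted p = 0.00383), also without each array in turn. Tshz2 B had passed the filter through neonatal arrays alone. Every embryonic array and 1 neonatal array lay at background level, and the neonatal mean of log2 signals did not exceed the embryonic array medians, so the size of the difference is not bounded and no fold is given. Probe set A of Tshz2 gave 1695 and 1953 in cortex, 1534 and 1691 in cerebellum, 1614 and 1415 at 15.5 dpc and 1796 and 1540.5 at 13.5 dpc and a difference of 0.11 ± 0.14 (limma adjusted p = 0.579), not called. Tshz3, on chromosome 7, gave 1252 and 1552 in cortex, 784 and 858 in cerebellum, 1165 and 1260.2 at 15.5 dpc and 826 and 805 at 13.5 dpc, with cortex above cerebellum by 0.73 ± 0.18 and 15.5 above 13.5 dpc by 0.54 ± 0.18, neither called (limma adjusted p = 0.324 and 0.142). Zfhx2 and its antisense RNA Zfhx2os ranged from 421 to 820.3 and from 357 to 863 and were not called.

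Prox1, a gene of dentate granule cells and of neurons leaving the cell cycle, gave 392 and 413 in cortex, 173 and 209 in cerebellum, 223 and 237 at 15.5 dpc and 171 and 141 at 13.5 dpc with probe set A. Only the cortical arrays were above the median. It was higher in the neonate by 0.45 ± 0.13 (limma adjusted p = 0.0456), at least 1.02-fold. Like Tshz2 B, Prox1 A had passed the filter through neonatal arrays alone. Cortex alone was 0.89 above the embryonic mean and cerebellum 0.0030, and the call was lost without any 1 array (adjusted p up to 0.154). Cortex minus cerebellum was 0.89 ± 0.19, at least 1.73-fold (limma adjusted p = 0.212, not called). Probe set B of Prox1, which was not tested, ranged from 9.8 to 153, below the median on every array. Prox1os gave 534 and 523 in cortex, 356 and 329 in cerebellum, 529 and 340.1 at 15.5 dpc and 405 and 484 at 13.5 dpc, likewise higher on both cortical arrays than on the cerebellar ones, by 0.55 ± 0.23 (limma adjusted p = 0.651, not called).

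Members better known outside the brain were also measured. Dlx4os, beside the placode and branchial arch gene Dlx4, gave 164 and 50.9 in cortex, 66.5 and 42.5 in cerebellum, 380.1 and 259 at 15.5 dpc and 299.8 and 88.3 at 13.5 dpc. The paternal-7 array at 13.5 dpc lay among the neonatal values and the other embryonic arrays above them. It was lower in the neonate, with a difference of -1.14 ± 0.20 (limma adjusted p = 0.00702), also without each array in turn. Dlx4os had passed the filter through 2 embryonic arrays alone, and the fits without 1 array did not reapply it. Every neonatal array and 2 embryonic ones lay at background level, and the embryonic mean of log2 signals did not exceed the neonatal array medians, so no fold is given here either. Dlx4 itself ranged from 269 to 468 and was not called. Msx2, of the skull and roof plate, gave 390.2 and 378 at 13.5 dpc and 169 and 306 at 15.5 dpc. Its neonatal arrays ranged from 131 to 211, and it had passed the filter through embryonic arrays alone. Nkx2-6, of the pharynx and heart, ranged from 448 to 1125. Neither Msx2 nor Nkx2-6 was called.

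**Figure D4:**
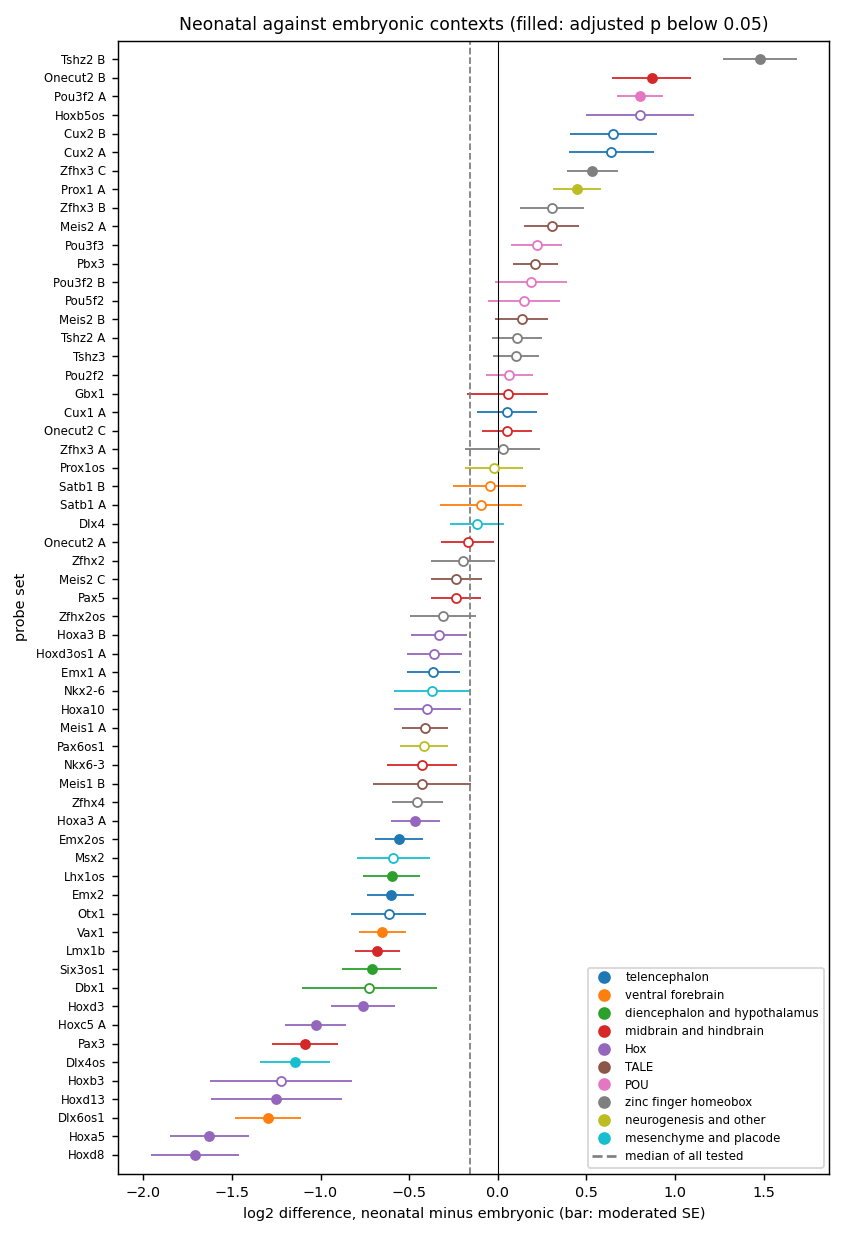
The log2 difference, neonatal minus embryonic contexts, of the 60 tested probe sets (horizontal axis; bars are the moderated standard error, filled points are called, colours are the roles), with a dashed line at the median of all tested probe sets, -0.16. Of the 15 called lower 6 are Hox probe sets, and the 5 called higher are Tshz2 B, Onecut2 B, Pou3f2 A, Zfhx3 C and Prox1 A.

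Of the 20 members called between neonatal and embryonic contexts, 7 had arrays that did not overlap: Hoxd8, Hoxa5, Hoxc5 A, Hoxa3 A, Six3os1, Emx2os and Tshz2 B. The share of all tested probe sets with all neonatal arrays below was 16.5%, and 8 of the 60 members (13.3%) were in that state, while 1 had them above, against 11.8%. In 4 comparisons chosen after seeing the data, each side was taken alone. Against the embryonic mean 13 of the 60 members were called for cortex (21.7%) and 16 for cerebellum (26.7%), and 20.4% and 21.1% of all tested probe sets. Against 15.5 dpc alone 8 members were called (13.3%) and 9.32% of all tested probe sets, and against 13.5 dpc alone 18 (30.0%) and 31.8%. Of the 10 tested noncoding probe sets 5 were called lower in the neonate and none higher, and of the 50 protein-coding ones 10 lower and 5 higher, where 16.4% of all tested probe sets were lower and 14.3% higher. These shares were not compared by a test. Of the 5 noncoding calls, those of Six3os1, Emx2os and Lhx1os did not hold under median centring. Dlx4os had passed the filter through embryonic arrays alone, and the remaining call was that of Dlx6os1.

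The duplications were the comparison the series was made for. No member was called between paternal-7 and maternal-7 arrays, where 0.00756% of all tested probe sets were called. Of the members, 10 had an unadjusted limma p below 0.05, and the smallest adjusted p was 0.532. Maternal-7 was higher in all 4 contexts for 14 members and paternal-7 for 3, against 9.08% and 9.67% of all tested probe sets. Only the values are therefore given. Dlx4os, Onecut2 B, Zfhx3 C, Zfhx3 B and Otx1 had the largest negative differences with a single sign in 4 of 4 contexts, -0.77 ± 0.20, -0.68 ± 0.22, -0.67 ± 0.15, -0.59 ± 0.18 and -0.59 ± 0.21. Onecut2 C was lower on all 4 paternal-7 arrays too, with -0.27 ± 0.14, while Onecut2 A and Zfhx3 A had both signs, with -0.15 ± 0.21 for the latter. Emx2 and Pbx3 were also lower on all 4 paternal-7 arrays, with -0.49 ± 0.13 and -0.38 ± 0.13. The 3 positive ones were Nkx6-3, at 0.46 ± 0.20 and at least 1.27-fold, Pax6os1 at 0.26 ± 0.13 and Emx2os at 0.19 ± 0.14. Nkx6-3, a gene of hindbrain interneurons and stomach, gave 199.6 and 206 in cortex, 204 and 263 in cerebellum, 201 and 511 at 15.5 dpc and 253 and 351 at 13.5 dpc, and Pax6os1, beside Pax6, gave 197 and 229.9 in cortex, 143 and 209.5 in cerebellum, 224 and 311 at 15.5 dpc and 281 and 298 at 13.5 dpc. In both the widest gap between the duplications, in signal units, was at 15.5 dpc, and the duplications overlapped across contexts.

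The duplicated chromosomes hold 6 member genes, Dbx1, Pou2f2 and Tshz3 on chromosome 7 and Dbx2, Hoxc10 and Hoxc5 on chromosome 15, and the annotation used does not say which lie inside the duplicated parts. None of those tested was called between the duplications. A test of whether the duplication effect differed between neonatal and embryonic contexts called no member either, with 0.0% of all tested probe sets called, 2 members at an unadjusted limma p below 0.05 and a smallest adjusted p of 0.499.

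Probe sets with the most similar profiles over the 8 arrays were found among all other named genes, as a description, since the arrays share their contexts and scaling. For Vax1 these were Cdk19 (Pearson r = 0.982), Meis2 (0.968) and Nfib (0.956). For Dlx6os1 they were Sox11 (0.968), Eml1 (0.967) and Lrch2 (0.958), and for Pax3 Lmx1b (0.978), Ndfip2 (0.977) and Hs3st3b1 (0.968). For genes and the noncoding RNAs beside them r was 0.763 for Zfhx2 and Zfhx2os, 0.666 for Hoxd3 and Hoxd3os1 A, 0.550 for Emx2 and Emx2os, 0.501 for Dlx4 and Dlx4os and 0.467 for Prox1 A and Prox1os. In 9 genes with at least 2 tested probe sets, these shared the sign of the neonatal difference in 7, of the cortical one in 4, and of the embryonic and duplication ones in 5 each.

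Homeobox genes with names outside the chosen families, 22 tested probe sets of 15 genes, served as a comparison. Shox2, a gene of thalamus and hindbrain, was lower in cortex than in cerebellum, with -2.39, and Zeb2 A, a regulator of cortical interneurons and neural crest, higher, with 2.36, the only 2 called there. In the neonate 4 of the 22 were higher and 6 lower, against 14.3% and 16.4% of all tested probe sets, and at 15.5 dpc 1 was higher and 6 lower than at 13.5 dpc, against 3.52% and 3.07%. The 4 higher in the neonate were Phtf2 and probe sets A, B and F of Zhx3. The 6 lower at 15.5 dpc were Alx1 A (-3.03), Prrx1 A (-2.90), Zhx3 E (-1.74), Tgif2, Mkx and Hmbox1, and the 1 higher was Zhx3 A (1.77). Alx1 A and Prrx1 A, high on the 13.5 dpc arrays alone, were also among the 6 lower in the neonate. Genes listed as partners of homeodomain factors, 10 tested probe sets of 8 genes, included 8 probe sets called between neonate and embryo, against 30.7% of all tested probe sets. Ssbp2 A, Ldb2 A and Ldb2 B, of a LIM domain binding gene, and Lmo3, a LIM-only gene, were higher in the neonate, by 1.55, 0.86, 1.31 and 1.98. Their counterparts of the eyes absent family, partners of sine oculis homeodomain proteins, were lower, with -0.54 for Eya1 A, -0.93 for Eya3 A, and -0.93 and -0.83 for Eya4 A and B. Of these partners Eya1 A and Eya4 A were also called lower at 15.5 than at 13.5 dpc, with -0.95 and -1.25. Ssbp2 A was called higher there, with 1.33. The shares of all tested probe sets were 3.07% lower and 3.52% higher.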

How the data were processed

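Each of 8 brain samples, 1 per context and duplication, was run on an Affymetrix 430B array. The deposited table holds linear signal intensity values that the authors made with MAS5, per the submitters' processing notes, with version and settings not given in the sources used here. Then 64 control probe sets were set aside. Of the other 22511 probe sets, 14661 had 1 gene symbol in the platform annotation, 245 several and 7605 none; 1 probe set with several symbols that matched a member name was left out. All 81 member probe sets were found by gene identifier in the RefSeq gene table of GRCm38.p6, with unchanged symbols.

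Signals were transformed as log2(signal + 58.5), the pseudocount being the 20th percentile of an array, as the median of the 8, and were not normalized further. MAS5 summarises each array alone, so low signals are noisy. The 13221 probe sets above the array median on at least 2 of 8 arrays were fitted together with limma 3.58.1 (R 4.3.3), with terms for context and duplication, 3 residual degrees of freedom and empirical Bayes moderation; a second model with separate neonatal and embryonic duplication effects had 2. P-values were adjusted by Benjamini-Hochberg. The labels give no separate animals, so p-values cover no more than the spread of these 8 arrays, and their number limits the precision. A fold is written as "at least" where 1 side lay below the median on all its arrays, with the larger of signal and median as the dim value and no pseudocount. Tested on simulated data with 100 changed probe sets per size, among 13221, the fit called 22% of changes of 1 log2 unit and 73% of 2 units for cortex minus cerebellum, 57% and 85% for neonatal minus embryonic, 19% and 69% for 15.5 minus 13.5 dpc, and 55% and 90% for the duplications. The simulation shuffled the spreads among probe sets, so dim ones were no noisier than bright ones. It also changed few probe sets, while 30.7% were called between neonate and embryo in the data. The rates therefore may not hold for dim members or for that comparison.

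The members, the roles and the marker lists were chosen with earlier results of these data known. The probe sets named are those called, up to 12 in each direction of a comparison, or, in comparisons with fewer than 5 calls, the 5 that differed most each way with a single sign in both duplications or in all 4 contexts. The Hox genes and a fixed list of forebrain, midbrain and hindbrain regulators are named whatever their values, and other probe sets of a named gene are given beside it. Further values (Prox1, Prox1os, Tshz3, Pou3f3, Emx1 and Cux2 between contexts, Pbx3 and Onecut2 C between duplications, and the ranges of members not called) were added after their values were seen. Alternatives were other normalizations, pseudocounts and filters, an intensity trend, no duplication term, subsets of arrays, 1 probe set per gene and leaving out each array. Fits without 1 array kept the probe sets that had passed the filter on all 8 arrays. In every comparison of contexts these fits called fewer of all tested probe sets than the main fit. A call lost there is therefore not particular to its probe set.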

Additional observations from a re-analysis of the deposited data

How the results depend on the processing

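Results of the 6 comparisons and of the Hox genes were recomputed with each choice changed in turn. For cortex minus cerebellum the number of members called was 1 and became 4 with a pseudocount of 200, 5 with a filter at the 75th percentile, 6 with an intensity trend in limma, 3 without the duplication term, 2 with the neonatal arrays only and 4 with 1 probe set per gene; Vax1 was among them each time. Leaving out 1 array gave 0 to 1, with 0 without either cortical or either cerebellar array. For neonatal minus embryonic the 20 became 13 with the strict filter, 8 against 15.5 dpc only and 13 for cortex only, and 8 to 20 without 1 array, the lowest without the paternal-7 cortex array, with 11 without the maternal-7 cortex or cerebellar array and 12 without the paternal-7 cerebellar array. Among these calls 8 were kept without any 1 array and 13 under both normalizations. Hoxd8 and Dlx4os, among the 8, had passed the filter with 2 arrays each, and it was not reapplied. For 15.5 minus 13.5 dpc the 5 became 2 with signals floored at 1 and no pseudocount, 0 without the filter, 1 without the duplication term, 0 with the embryonic arrays only and 0 to 1 without 1 array, with 1 without the maternal-7 array at 13.5 dpc and 0 without any other. The 20 that differed among contexts became 13 without the filter and 8 to 19 without 1 array, with 8 and 9 without the maternal-7 and paternal-7 cortex arrays and 11 without either cerebellar array or the paternal-7 array at 13.5 dpc. The 6 lower Hox probe sets became 3 with quantile normalization, median centring or the strict filter, 1 against 15.5 dpc only, 3 for cerebellum only and 3 to 6 without 1 array, with 3 without either cortex array, the maternal-7 cerebellar array, the paternal-7 array at 15.5 dpc or the maternal-7 array at 13.5 dpc. No member was called for the duplications or their interaction in limma under any alternative run. Counts over all tested probe sets moved as well. Between the embryonic ages 871 of 13221 were called, and 459 with the floor of 1. They were 841 without the duplication term, 0 with the embryonic arrays only and 207 of 22511 without the filter. Leaving out any 1 array lowered the count of all calls in every comparison of contexts. Fewer member calls in those fits are therefore not particular to the members.

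The sign turned in these cases. Against cortex or cerebellum alone, Vax1 became 0.53 (cortex), and Lhx1os 0.12, Zfhx4 0.19 and Onecut2 A 0.047 (cerebellum); Zfhx3 A became -0.0368 and Onecut2 C -0.14 (cortex). Against 15.5 dpc only Zfhx4 became 0.078 and Onecut2 C -0.0245, and against 13.5 dpc only Zfhx3 A became -0.36 and Zfhx3 B -0.30. Median centring turned Onecut2 A to 0.0052. Without 1 array the neonatal difference ranged from -0.22 to 0.28 for Zfhx3 A, from -0.036 to 0.14 for Onecut2 C and from -0.018 to 0.39 for Pou3f2 B, the embryonic one of Pou3f2 B from -0.29 to 0.53, and the duplication difference of Zfhx3 A from -0.26 to 0.10, with 0.067 on neonatal arrays only. Apart from Vax1 and Lhx1os these were not called. The comparisons against 1 context were chosen after seeing the data, and the causes were not tested. No paired analysis was possible because the labels give no replicate numbers to pair by; the model already compares the duplications within contexts and the contexts within duplications, and the setting without the duplication term is given above.

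With 1 array per group the error rests on the additive model, and small differences of dim probe sets cannot be told from noise. Array medians differed between neonatal and embryonic samples, so neonatal differences of about the size of the common shift depend on the normalization.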
